A study of Mus musculus with 2 samples.

Results

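The genes described here encode core proteins of the spliceosome and the RNA-binding proteins that steer it, and were measured in imatinib-treated Ba/F3 cells that express BCR-ABL. They were chosen with earlier results of these data known. The choice went by gene symbol, to the SF3A, SF3B, SRSF, hnRNP, SNRP, LSM, PRPF and U2AF families. A gene was kept where a probe set of the array names it without any other gene. This gave 74 genes, measured by 98 probe sets, out of 19935 genes named in that way. Ba/F3 cells are a mouse line of early B-lineage type that needs interleukin-3 (IL-3) to survive. BCR-ABL, the oncogenic kinase behind chronic myeloid leukaemia, replaces that need and is blocked by imatinib. The 2 groups were cells grown with IL-3 (titled Live-IL3) and cells grown without IL-3 (titled Live-NoIL-3). Both expressed BCR-ABL constitutively, grew in RPMI medium with 10% serum and received 5 µM imatinib for 6 h. The submitters describe the cells with IL-3 as resistant to imatinib and those without it as sensitive, and the comparison asks how cells that will survive differ from cells that will die.

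Each group had 1 array, so no difference below has a replicate, a standard error or a p-value, and precision is limited by the number of arrays. The groups follow the sample titles, because the description of the Live-IL3 array says that its cells were grown without IL-3, against its own title and source name. The source name of the other array can also be read as without imatinib, while the treatment protocol gives imatinib for both. If the titles were exchanged, every sign below would turn. The deposited values are logs, taken as log2, relative to an unstated baseline of each probe set, so that they show no expression level and genes cannot be ranked by abundance. Each difference is the value with IL-3 minus the value without it, and larger values were taken to mean more transcript. Whether Ba/F3 cells express their defining B-lineage markers could not be read from such values; of 8 B-lineage markers measured, 0 were 1.5-fold apart. Markers of mast cells and basophils were lower with IL-3 in 5 of 6 genes, and by at least 1.5-fold in 4 of 6. The values of the 6 were -0.58 to -0.08 with IL-3 against -0.11 to 1.88 without. Of the other marker lists, 2 of 6 granulocyte and 1 of 4 macrophage genes were at least 1.5-fold lower. So were 1 of 4 T cell and 1 of 2 erythroid genes, and 0 of any list were at least 1.5-fold higher. Above 0 were 3 of 6 granulocyte, 1 of 4 macrophage, 3 of 4 T cell and 0 of 2 erythroid genes. Over all genes, 2.71% passed that threshold on the lower side and 3.52% on the higher side. Lists this short cannot be compared with such shares. The part of these markers in the results below was not tested. In RNA from a whole culture, fewer cells of one kind and less RNA per cell cannot be told apart.

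Introns are removed from pre-mRNA by the spliceosome, which is built on each intron from small nuclear ribonucleoproteins (snRNPs). Each snRNP holds a small nuclear RNA (snRNA), a ring of 7 Sm or LSm proteins and proteins of its own. U1 and U2 bind the start of the intron and its branch point, and the U4/U6 and U5 particles then join as a tri-snRNP that is rearranged into the active enzyme. SR proteins, which carry arginine-serine repeats, mostly bind exons and help these particles to assemble, whereas hnRNPs coat nascent transcripts and often hold splice sites back.

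By role, the largest median differences were 0.73 for Sm, 0.57 for U1 and U2 and 0.45 for LSm genes, higher with IL-3. The roles follow the gene symbols. The U1 and U2 role holds only the 4 Snrp genes outside the Sm ring. The 13 Lsm genes include some whose proteins are not in an snRNP ring. The medians were smaller, between 0.16 and 0.24, for branch point, PRPF, SR and hnRNP genes. Among these, PRPF and SR genes lay on both sides of 0, and all 12 branch point and all 17 hnRNP genes above it. Of the 74 genes, 67 were above 0 and 7 below, 16 were at least 1.5-fold higher, and 1, Srsf5, was at least 1.5-fold lower. Shares over all 19935 genes were 59.8% above 0, 40.1% below, 3.52% at least 1.5-fold higher and 2.71% at least 1.5-fold lower. The share of at least 1.5-fold higher genes was 21.6% in the splicing families, which were chosen with earlier results of these data known. None was 2-fold apart, that is 0 of 74 in either direction, where 0.441% of all genes were at least 2-fold higher and 0.657% at least 2-fold lower. The median difference was 0.29 over the 74 genes and 0.04 over all genes.

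The 74 genes also lay high on the scale of deposited values. Of the 74 genes, 53 were in the highest 25% of all genes by the mean of both arrays, and genes of that class differed more in general. At least 1.5-fold higher were 15 of these 53 (28.3%), against 12.8% of the 4984 genes in that class. The median difference was 0.34 for the 53 genes and 0.11 for the class. The class is cut on the same 2 baseline-relative values as the difference, so it is not a class of abundance and is not independent of the difference. Subtracting the trend of the difference on the mean (loess) left 8 of the 74 genes, or 10.8%, at least 1.5-fold higher, with 1.79% of all genes.

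**Figure D1:**
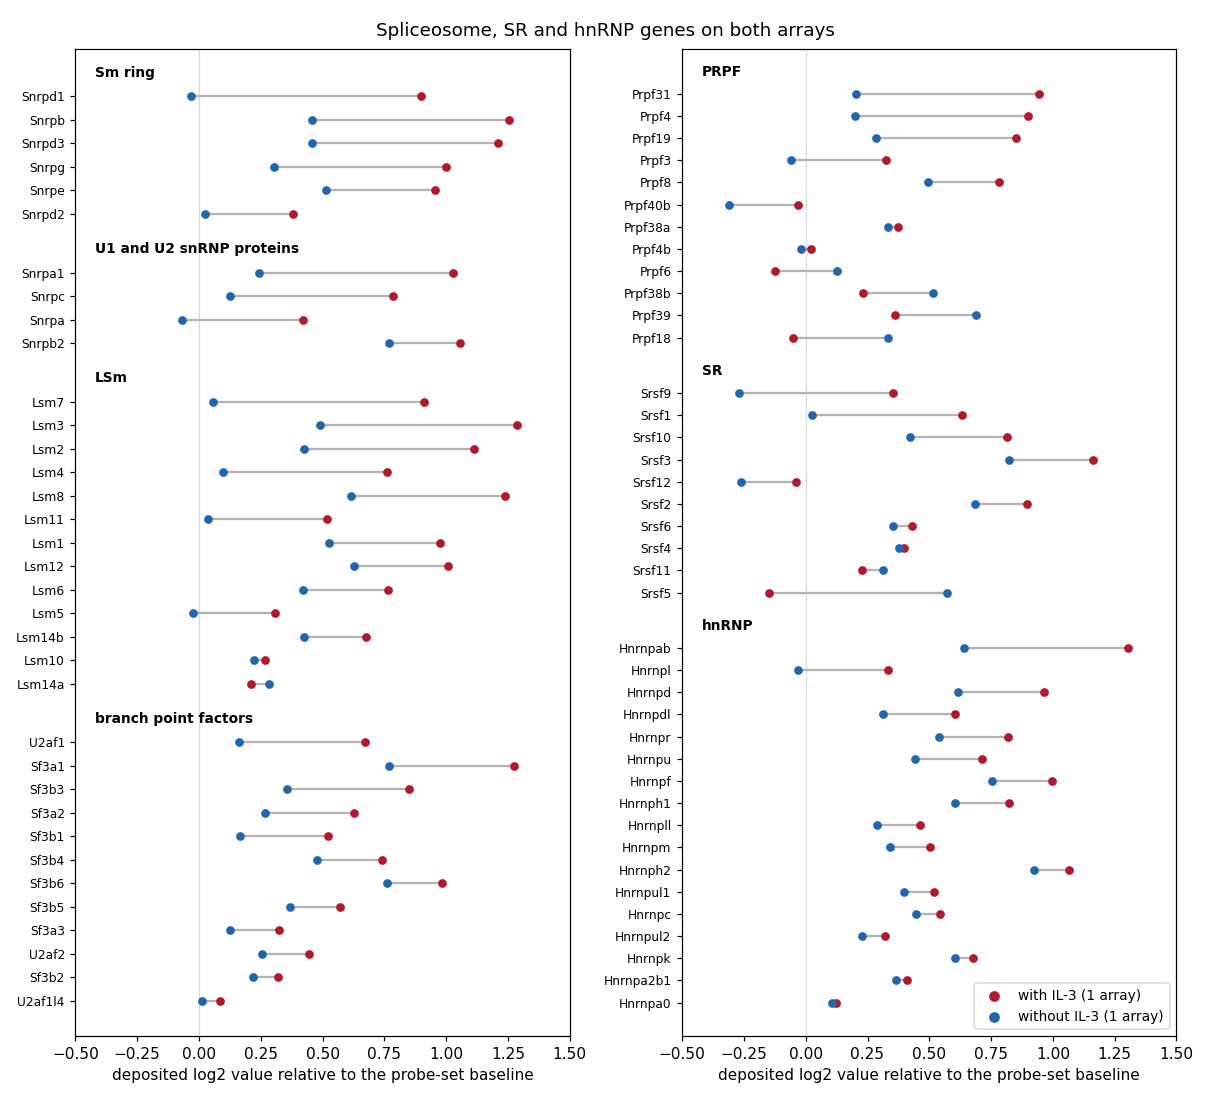
Deposited values of the 74 genes on the array with IL-3 (red) and the array without IL-3 (blue), on a log2 scale relative to each probe set's baseline (x axis), grouped by role and ordered by difference. Every Sm, U1 and U2 gene has its red point to the right, and Srsf5 has the longest line among the 7 genes whose blue point is to the right.

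The Sm proteins form the ring around U1, U2, U4 and U5 snRNA, and all 6 of their genes that were measured alone were higher with IL-3. Snrpd1, which encodes SmD1, had the largest difference of all 74 genes, with a value of 0.90 with IL-3 and -0.03 without, or 1.90-fold. It stood at rank 131 of all 19935 genes by difference. Snrpb, which encodes SmB, had 1.25 with IL-3 and 0.46 without (1.74-fold). For Snrpd3 (SmD3) the values were 1.21 and 0.46 (1.68-fold), and for Snrpg (SmG) 1.00 and 0.30 (1.62-fold), each with IL-3 first. The other two were closer to 0. Snrpe (SmE) had 0.96 with IL-3 and 0.52 without, and Snrpd2 (SmD2) 0.38 with IL-3 and 0.03 without. The 5 probe sets of Snrpd2 had differences of -0.05 to 0.36, with a mean of 0.15, and the reported one is the highest. The median difference of the 6 was 0.73, the largest of the 7 roles, and 4 of 6 were at least 1.5-fold higher. After the loess trend was subtracted, Snrpd1 remained past 1.5-fold, while Snrpb (0.54), Snrpd3 (0.51) and Snrpg (0.54) did not, and Snrpg was also short of it (0.55) with its smallest-difference probe set.

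Snrpf, which encodes the remaining SmF, was measured only by a probe set shared with Gm13092, where the values were 0.53 with IL-3 and 0.05 without. Snrpn encodes a copy of SmB made mainly in brain. Its only probe set, shared with Snurf, was on the other side of 0, with -0.23 with IL-3 and -0.05 without.

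Among the proteins specific to U1 and U2, all 4 genes with Snrp symbols were higher with IL-3, with a median difference of 0.57. Snrnp70, for another U1 protein, is outside these symbols and differed by 0.13. The SF3A and SF3B parts of U2 are counted with the branch point factors. Snrpa1, which encodes the U2 protein A′, had 1.03 with IL-3 and 0.24 without (1.73-fold). Snrpc, which encodes the U1 protein C, which steadies the pairing of U1 with the start of the intron, had 0.78 and 0.12 (1.58-fold). Snrpa, which encodes the U1 protein A, had 0.42 with IL-3 and -0.07 without (1.40-fold), and Snrpb2, for the U2 protein B″ that partners A′, had the smallest difference at 1.06 with IL-3 and 0.77 without (1.22-fold). The 2 partners in U2 thus differed to unequal degrees. After the loess trend was subtracted, Snrpa1 was at 0.64 and Snrpb2 at 0.0001. Snrpc had 3 probe sets, with differences of 0.29 to 0.66, and their mean of 0.51 was short of 1.5-fold.

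LSm proteins are relatives of the Sm proteins. LSm2 to LSm8 form the ring on U6 snRNA in the nucleus, and in the cytoplasm LSm1 takes the place of LSm8 in a ring that promotes mRNA decapping. Of 13 Lsm genes, 12 were above 0 and 5 at least 1.5-fold higher, with a median of 0.45. All 5 belong to the U6 ring. Lsm7 had 0.91 with IL-3 and 0.06 without (1.81-fold), Lsm3 1.29 and 0.49 (1.74-fold), and Lsm2 1.11 and 0.42 (1.61-fold). Lsm4 had 0.76 with IL-3 and 0.10 without (1.58-fold), and Lsm8 1.24 and 0.61 (1.54-fold). The remaining ring genes Lsm5 and Lsm6 differed by 0.33 and 0.34. With the loess trend subtracted, Lsm4 and Lsm7 stayed past 1.5-fold and Lsm3 (0.52), Lsm2 (0.47) and Lsm8 (0.33) did not. Lsm8 also missed it after quantile normalization (0.48).

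Lsm1, of the cytoplasmic ring, had 0.98 with IL-3 and 0.53 without, a difference of 0.45 that was smaller than that of Lsm8 (0.62). Lsm10 and Lsm11 belong to the U7 particle, which processes histone mRNA. They differed by 0.04 and 0.49. Lsm14a and Lsm14b encode translational repressors of processing bodies, and Lsm14a was the only Lsm gene below 0, at 0.21 with IL-3 and 0.28 without. Lsm14b was at 0.68 with IL-3 and 0.42 without, and Lsm12 at 1.01 with IL-3 and 0.63 without.

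**Figure D2:**
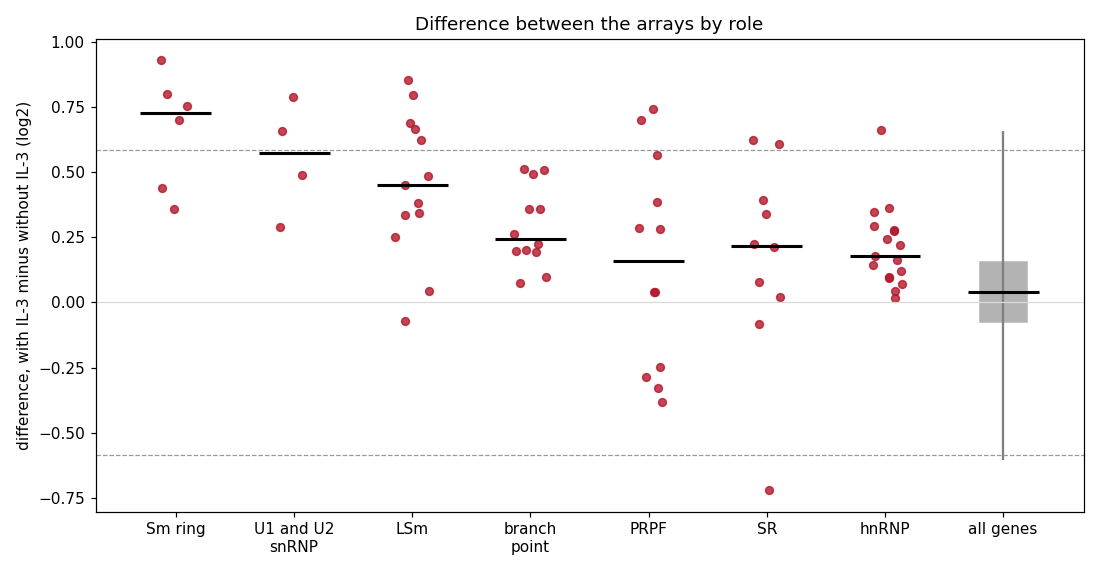
Difference between the arrays (with IL-3 minus without IL-3, log2, y axis) for each gene, by role, with black bars at the medians and dashed lines at 1.5-fold. For all genes the box spans the central 50% (-0.08 to 0.16) and the line the central 95% (-0.61 to 0.66); the medians of the Sm ring (0.73), U1 and U2 (0.57) and LSm (0.45) genes lie above the other roles.

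Branch point factors were also above 0 throughout, but by less. SF3A and SF3B are the parts of U2 that hold the branch point, and U2AF reads the end of the intron. All 12 genes were above 0, none was 1.5-fold apart (0 of 12), and the median difference was 0.24. U2af1, for the small subunit that recognises the closing AG of the intron, had the largest difference, with 0.67 with IL-3 and 0.16 without (1.43-fold). Its partner U2af2, for the large subunit that binds the pyrimidine tract, differed by 0.19. U2af1l4, a relative of U2af1, had the smallest difference of the role, with 0.09 with IL-3 and 0.01 without.

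Within SF3A, Sf3a1 had 1.28 with IL-3 and 0.77 without, while Sf3a2 differed by 0.36 and Sf3a3 by 0.20. Within SF3B, Sf3b3 had 0.85 with IL-3 and 0.36 without. Sf3b1, which encodes the large scaffold that is often mutated in myelodysplastic syndromes, had 0.52 with IL-3 and 0.16 without (1.28-fold). Sf3b4, Sf3b6, Sf3b5 and Sf3b2 were between 0.10 and 0.26.

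PRPF genes, named after yeast genes of pre-RNA processing, went both ways, with 8 of 12 above 0, 4 below and a median of 0.16. The share above 0 was 66.7%, near the 59.8% of all genes. Both genes that were at least 1.5-fold higher encode proteins of the U4/U6 particle. Prpf31 had 0.94 with IL-3 and 0.20 without (1.67-fold) and Prpf4 had 0.90 with IL-3 and 0.20 without (1.62-fold). Prpf3, which encodes a partner of PRPF4 in the same particle, had 0.32 with IL-3 and -0.06 without (1.31-fold). Prpf19, for a ubiquitin ligase that leads a complex of the active spliceosome, fell just short of 1.5-fold at 0.85 with IL-3 and 0.29 without (1.48-fold). Prpf8, which encodes the protein at the catalytic centre, had 0.78 with IL-3 and 0.49 without.

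On the other side of 0 were Prpf18, Prpf39, Prpf38b and Prpf6, all within 1.5-fold. Prpf18 encodes a factor of the second catalytic step and was the lowest of the role, at -0.05 with IL-3 and 0.33 without (1.30-fold lower). Prpf39, for a U1-associated protein, was at 0.36 with IL-3 and 0.69 without. Prpf38b had 0.23 with IL-3 and 0.52 without. Prpf6, which bridges the tri-snRNP, had -0.12 with IL-3 and 0.12 without, so that a tri-snRNP protein lay below 0 while Prpf31 and Prpf4 lay above it. The kinase gene Prpf4b and Prpf38a differed by 0.04 each, and Prpf40b by 0.28.

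SR genes were the role with the widest range, from -0.72 to 0.62. Of 10 genes, 8 were above 0, 2 were at least 1.5-fold higher and 1 was at least 1.5-fold lower. Their median was 0.22. Srsf9 had 0.35 with IL-3 and -0.27 without (1.54-fold). Srsf1, the founding SR protein and a known proto-oncogene, had 0.63 with IL-3 and 0.03 without (1.52-fold), and was just short of 1.5-fold after quantile normalization (0.56) and after loess (0.58). Srsf5 was the reverse, at -0.15 with IL-3 and 0.57 without (1.65-fold lower), and stood at rank 19598 of 19935 by difference. Both of its probe sets were below 0, at -0.72 and -0.55.

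The other SR genes lay between these. Srsf10, whose protein represses splicing when dephosphorylated, had 0.81 with IL-3 and 0.42 without. Srsf3 had 1.16 with IL-3 and 0.82 without, and its 3 probe sets differed by 0.19 to 0.34. Srsf12, Srsf2, Srsf6 and Srsf4 ranged from 0.02 to 0.22, and Srsf11 was at -0.08. SR genes are known to make both productive and unproductive splice forms, which a single value per gene does not separate.

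All 17 hnRNP genes were above 0, yet only Hnrnpab was at least 1.5-fold higher, with 1.30 with IL-3 and 0.64 without (1.58-fold). It was short of 1.5-fold after quantile normalization (0.53) and after loess (0.34). The median difference of the role was 0.18. Hnrnpl, whose protein regulates the splicing of CD45 in lymphocytes, had 0.33 with IL-3 and -0.03 without (1.29-fold), and Hnrnpd, which encodes the AU-rich element binding protein AUF1, had 0.96 with IL-3 and 0.62 without (1.27-fold). Hnrnpdl, Hnrnpr, Hnrnpu, Hnrnpf and Hnrnph1 were between 0.22 and 0.29. At the low end, Hnrnpk, Hnrnpa2b1 and Hnrnpa0 differed by 0.07, 0.04 and 0.02, and the 3 probe sets of Hnrnpk reached from 0.07 to 0.29. Hnrnph2, Hnrnpul1, Hnrnpc and Hnrnpul2 differed by 0.0945 to 0.1435. All of these reported differences were smaller than the pooled SD of 0.1441 between probe sets of one gene.

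Some hnRNP genes were measured only together with relatives or pseudogenes and are not in these counts. Hnrnpa3 shared 9 probe sets with Gm6793. Their values were 0.81 to 0.99 with IL-3 and -0.07 to 0.19 without, which gave differences of 0.80 to 0.97, more than any of the 17 genes counted. Because the probe sets name both genes and may read near-identical sequence, they are not 9 separate measurements, and the source of the signal cannot be assigned. For Hnrnpa1, 5 probe sets shared with Gm10052, Gm5643 and Hnrnpa1l2-ps2 had differences of -0.12 to 0.29. Hnrnph3, sharing a probe set with Aff3, had 0.64 with IL-3 and 0.47 without.

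Of the 74 genes, 14 had more than 1 probe set, and in 12 of these all probe sets lay on one side of 0. The exceptions, picked out after their values were seen, were Lsm6 (-0.02 to 0.34) and Snrpd2 (-0.05 to 0.36). Their reported differences are the highest of their probe sets, as in all of the 14 except Lsm5, U2af1, Hnrnpk and Srsf5. With the mean of all probe sets, 15 members were at least 1.5-fold higher, beside 3.43% of all genes. With the smallest-difference probe sets, 14 were, beside 3.38%. The pooled SD between probe sets of a gene was 0.12 for these 14 genes and 0.14 for the 998 such genes on the array. It measures scatter within these 2 arrays, not between cultures. Sm, LSm and hnRNP genes are known for many processed pseudogenes, so a probe set assigned to a gene may read such a copy.

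**Figure D3:**
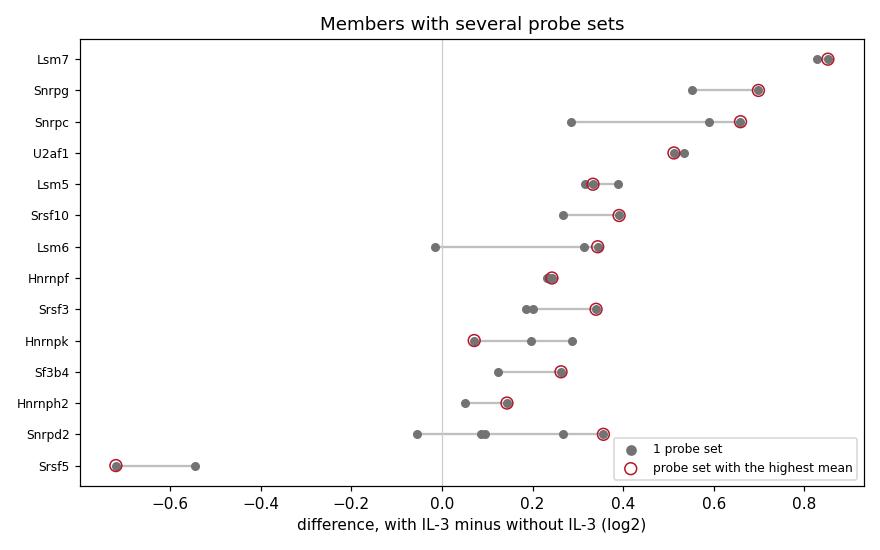
Difference between the arrays (with IL-3 minus without IL-3, log2, x axis) for every probe set of the 14 genes that had several (grey), with the reported one circled in red. The probe sets of Lsm7, U2af1 and Hnrnpf nearly coincide, and those of Snrpd2 and Lsm6 reach from below 0 to 0.36 and 0.34.

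Other genes of the splicing pathway were followed in 9 lists, with 141 of 150 listed genes measured. Together 12 were at least 1.5-fold higher (8.51%) and 4 at least 1.5-fold lower (2.84%), beside 3.52% and 2.71% of all genes, with a median difference of 0.16. The 12 ran from 0.592 (Clns1a) to 0.885 (Ppil1), and several lay close to the threshold of 0.585. Counts in these lists were not recomputed under other scalings. Above 0 were 101 of the 141 (71.6%), beside 59.8% of all genes. The snRNP assembly list was nearest to the Sm genes. It holds the SMN complex, which loads Sm rings onto snRNA, the factors that methylate and chaperone Sm proteins, and factors of snRNA export and cap binding, and 18 of its 19 genes were above 0, with 3 at least 1.5-fold higher and a median of 0.32. Prmt5, for the methyltransferase that modifies Sm proteins, had 1.24 with IL-3 and 0.56 without (1.61-fold). Clns1a, for its partner that chaperones Sm proteins, had 1.19 with IL-3 and 0.60 without. Ncbp1, a cap-binding subunit, had 1.09 with IL-3 and 0.50 without. Smn1 itself differed by 0.19, and Tgs1, which modifies the snRNA cap, was the only gene below 0, at -0.08.

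Among other U1, U5 and tri-snRNP genes, 12 of 14 were above 0 and 2 at least 1.5-fold higher, with a median of 0.26. Ppih, for a cyclophilin of the U4/U6 particle, had 0.92 with IL-3 and 0.07 without (1.80-fold), and Snu13, for a protein that binds U4 snRNA, had 1.06 with IL-3 and 0.36 without (1.62-fold). Luc7l2 was the lowest at -0.14. The U2-associated list had 10 of 12 above 0, 0 at 1.5-fold and a median of 0.21, from Smndc1 at -0.12 to Phf5a, which encodes another SF3B subunit, at 0.50.

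The exon junction complex marks spliced junctions. In the list of this complex and associated factors, 4 of 9 measured genes were at least 1.5-fold higher, with a median of 0.28. They were Eif4a3, for the clamping helicase (1.44 with IL-3 and 0.79 without), Alyref, Rnps1 and Rbm8a, and Acin1 was the lowest at -0.13. The minor spliceosome list had 6 of 8 genes above 0 and a median of 0.26, between Snrnp25 at 0.60 and Rnpc3 at -0.56. In the list of the PRPF19 complex and catalytic steps, 16 of 24 were above 0 (66.7%), near the 59.8% of all genes, with a median of 0.11. Its extremes were Ppil1, for a peptidyl-prolyl isomerase, with 1.22 with IL-3 and 0.33 without, and Slu7, for a factor of the second step, with 0.16 with IL-3 and 0.81 without.

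SR-related genes and SR kinases had medians near or below 0. Of 17 SR-related genes, 10 were below 0, 1 was at least 1.5-fold lower, 0 were at least 1.5-fold higher, and the median was -0.02. Rsrc1 was the lowest, at -0.31 with IL-3 and 0.31 without, and Bclaf1 the highest at 0.20. Among SR kinases, phosphatases and the import receptor, the median was 0.03 over 9 genes. Clk1, for a kinase that phosphorylates SR proteins, was 1.77-fold lower, with -0.07 with IL-3 and 0.75 without, and Ppp1ca was the highest at 0.31. Other splicing regulators had a median of 0.13 with 19 of 29 above 0 (65.5%), near the 59.8% of all genes. Ptbp1, for the polypyrimidine tract-binding protein, had 0.91 with IL-3 and 0.31 without (1.51-fold), and Celf2, for a regulator of splicing in lymphocytes, was 2.66-fold lower, with 0.26 with IL-3 and 1.67 without.

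**Figure D4:**
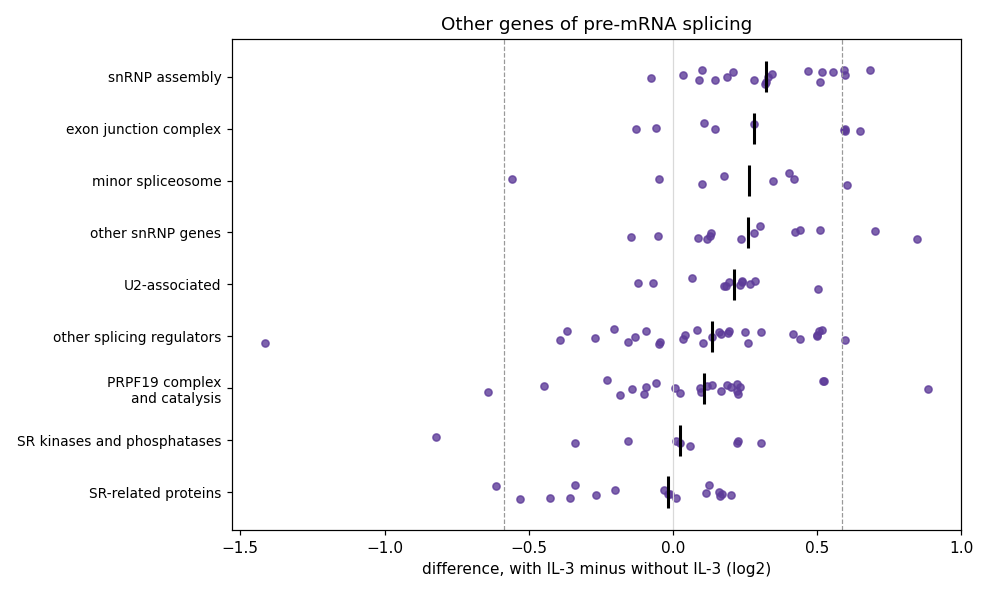
Difference between the arrays (with IL-3 minus without IL-3, log2, x axis) for the 141 other splicing genes by list, with black bars at the medians and dashed lines at 1.5-fold. The lists run by median from snRNP assembly (0.32) down to SR-related proteins (-0.02), and Celf2 (-1.41) is the lowest point.

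Promoter windows, 250 bases before to 50 after a transcription start, were at hand from RefSeq (GRCm38.p6) for 63 of the 74 genes, 83 windows in all. They were searched on both strands for the E-box CACGTG, to which MYC binds with MAX, for CCGGAAGT, which ETS-family factors bind, and for the palindromic NRF1 motif. No overlap between matches of different motifs was found (0 windows). The E-box was in 12.0% of the member windows, beside 8.25% of windows of all measured genes and 7.15% of all windows in the table. For CCGGAAGT the shares were 16.9%, 5.41% and 3.89%, and for the NRF1 motif 1.20%, 1.45% and 0.971%. Neither CACGTG nor CCGGAAGT was in a window of a gene at least 1.5-fold higher. The 8 genes with CACGTG had a median difference of 0.26 and 0 at least 1.5-fold higher, and the 12 genes with CCGGAAGT a median of 0.15 and 0 at least 1.5-fold higher. Of the genes at least 1.5-fold higher, 13 had a window. Of the 15612 measured genes with a window, 1483 held CACGTG and 939 held CCGGAAGT. With shares this low, 0 of 13 genes says little. Srsf5, the lowest of the 74 genes at -0.72, held CCGGAAGT at 2 places. A match or its lack describes letters in these windows and shows no binding.

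The 3 windows below belong to the genes with a match and the largest differences, and are shown so that the motif can be seen in its setting. Capitals mark the match (CACGTG in Snrpa, CCGGAAGT in the others). Sf3a1 lies at chr11:4160104-4160403 on the plus strand, Snrpa at chr7:27195711-27196010 on the minus strand, which is one of its 2 windows, and Snrpe at chr1:133610231-133610530 on the minus strand. Their differences were 0.51, 0.49 and 0.44.
Sf3a1: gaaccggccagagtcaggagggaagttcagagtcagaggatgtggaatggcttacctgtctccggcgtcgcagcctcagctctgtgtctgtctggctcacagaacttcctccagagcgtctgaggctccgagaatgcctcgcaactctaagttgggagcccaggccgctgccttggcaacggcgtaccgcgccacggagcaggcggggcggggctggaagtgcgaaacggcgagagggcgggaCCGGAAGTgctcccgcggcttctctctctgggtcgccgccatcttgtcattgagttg
Snrpa: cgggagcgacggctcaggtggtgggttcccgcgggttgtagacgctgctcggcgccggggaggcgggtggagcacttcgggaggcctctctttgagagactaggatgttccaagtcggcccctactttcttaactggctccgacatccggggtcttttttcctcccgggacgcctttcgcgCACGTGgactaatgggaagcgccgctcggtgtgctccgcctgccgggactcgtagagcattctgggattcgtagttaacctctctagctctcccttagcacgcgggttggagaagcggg
Snrpe: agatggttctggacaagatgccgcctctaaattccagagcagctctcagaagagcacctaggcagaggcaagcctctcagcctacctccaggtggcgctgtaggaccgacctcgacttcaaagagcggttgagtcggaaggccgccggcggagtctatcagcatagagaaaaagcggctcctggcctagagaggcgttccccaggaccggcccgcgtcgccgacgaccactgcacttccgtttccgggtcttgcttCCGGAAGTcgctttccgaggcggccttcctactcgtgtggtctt

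The order of the roles was compared under other scalings of the arrays. Medians of the Sm, U1 and U2, and LSm genes were above those of the other 4 roles as deposited, after median centring, after quantile normalization and after the loess trend was subtracted. The Sm median was 0.73 as deposited, 0.71 after centring, 0.63 after quantile normalization and 0.52 after loess. For SR genes these medians were 0.22, 0.20, 0.13 and 0.02, and for hnRNP genes 0.18, 0.16, 0.11 and 0.08. After loess, the U1 and U2 median (0.54) was higher than the Sm median.

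**Figure D5:**
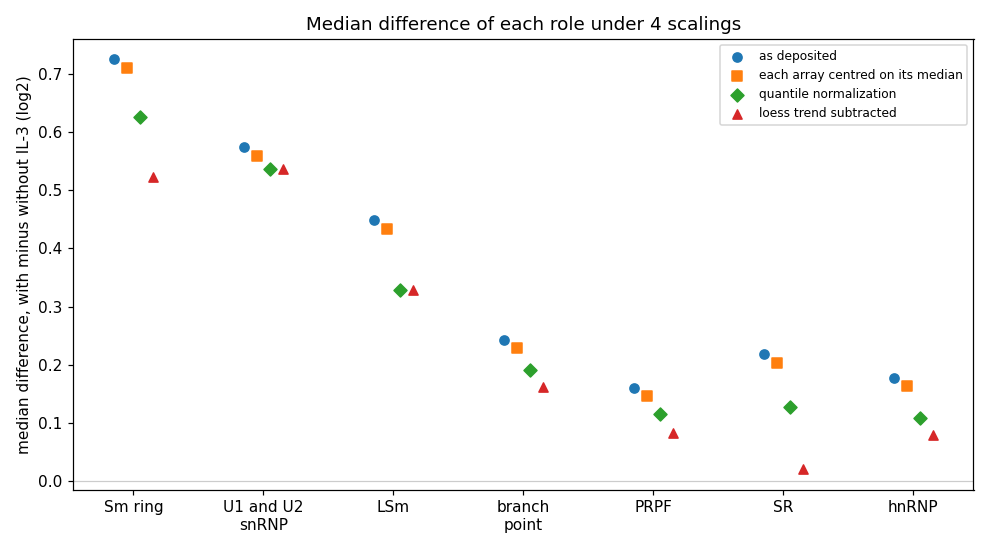
Median difference of each role (with IL-3 minus without IL-3, log2, y axis) as deposited and under 3 other scalings of the arrays. The 3 roles on the left stay above 0.3 under all 4, and the SR median nears 0 (0.02) after the loess trend is subtracted.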

How the data were processed

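RNA from 2 samples was measured on 1-colour mouse Gene 1.0 ST arrays, with biotin-labelled sense-strand cDNA per the labels' protocols. The authors deposited 1 log value on each array for each of 28815 probe sets, taken as log2, made relative to a per-probe-set baseline, as the values show (in 6.11% the 2 values are equal and opposite). Which log base, summarisation and normalization were used is not given in the sources used here. Gene names came from the platform annotation, where 21780 had 1 gene symbol, 1605 several and 5430 none. For each gene the probe set whose mean over both arrays was highest stood for the gene, and the difference with IL-3 minus without IL-3 was computed (Python 3.11.15, pandas 2.3.3, numpy 2.4.6), with no filter or rescaling. Genes were counted at 1.5-fold and 2-fold, without a test. Only the 2-fold count was run on simulated data, with planted differences well past 2-fold and little noise. That checks the code, not the precision of the counts. The 1.5-fold count was not checked in this way. The members and lists were chosen with earlier results of these data known. The text names members at least 1.5-fold apart and the extremes of each role and list, with other members to complete a role. The planned protein sequences were not used here.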

Additional observations from a re-analysis of the deposited data

How the results depend on the processing

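The counts of members at 1.5-fold and 2-fold, their median and the role medians were recomputed under 8 alternatives. Counts within a role, the other lists and the promoter shares were not recomputed. The count of members above 0 was 67 as reported, 64 after quantile normalization and 60 after loess. Shares of all genes above 0 were 59.8%, 54.9% and 51.1% in that order. The count of members at least 1.5-fold higher was 16 as reported, 8 after the loess trend was subtracted (1.79% of all genes) and between 13 and 24 under the others. The background moved too, with 2.41% of all genes where 13 were counted (quantile normalization) and 7.40% where 24 were (natural logs). The count at least 1.5-fold lower was 0 when the probe set with the smallest absolute difference was used and 0 once genes below either array's median were left out, which drops Srsf5. With values read as natural logs, 9 members were at least 2-fold higher and 1 at least 2-fold lower, and the medians were 1.05 for Sm, 0.83 for U1 and U2 and 0.65 for LSm genes, as the change of base implies. Loess moved the Sm median to 0.52 and the SR median to 0.020, and the smallest-difference probe sets moved the U1 and U2 median to 0.39; the cause was not tested. The other medians stayed within the probe set SD of 0.14. Of 24 members followed singly, all kept their direction under each alternative that gave them a value, except Snrpd2, at -0.05 with the smallest-difference probe set. Direction here includes values that are almost 0, such as Snrpb2 at 0.0001 after loess and Hnrnpa0 at 0.0017 after median centring. No paired analysis was possible because each group has 1 array. Depth has no counterpart here, and signal over background is unknown on baseline-relative values.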
